A study of Homo sapiens with 6 samples.

Results

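The genes described here encode secreted, membrane-bound and cytosolic inhibitors of proteases. They were taken by symbol from a list of 10 (SLPI, PI3, PI16, SPINT1, SPINT2, CST3, CSTB, TFPI, TFPI2 and RECK), of which 9 have a row among the 16258 genes of the deposited table, and PI3 is not analysed here. The list was chosen by results of these data already known, namely the difference between migratory and unsorted cells, in which SLPI and PI16 were among the genes that fell. The differences of the 9 genes between the groups are therefore given as a description. The samples are MDA-MB-231 cells, an established human line from a triple-negative breast cancer, kept in medium with serum and seeded in microfluidic devices. The migratory group is the highly motile cells isolated from these devices, with 3 samples. The unsorted group is the whole population, with 3 samples. Each sample was 1000 cells, its cDNA was amplified as full-length molecules and sequenced on 4 lanes, and all samples come from 1 line with no other treatment or genetic change named. The labels do not state whether samples within a group were grown apart, so every p-value here rests on differences among samples that could be technical replicates. Nor do they state whether unsorted cells also spent time in the channels.

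Proteases outside the cell open matrix, activate growth factors and start clotting, and inhibitors set how far that activity reaches. Each inhibitor family blocks its proteases with its own fold. WAP-domain proteins such as SLPI and Kunitz-domain proteins such as SPINT1, SPINT2, TFPI and TFPI2 hold a loop in the active site of serine proteases, on a core held together by disulfide bonds. Cystatins such as CST3 and CSTB wedge into the active site of cysteine proteases, mainly cathepsins. RECK is anchored to the membrane and restrains matrix metalloproteases, and PI16 belongs to the CAP superfamily.

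SLPI and PI16 were lower in migratory cells than in unsorted cells, by 16.5-fold and 5.29-fold. SPINT1, SPINT2 and CST3 had lower values in every migratory library than in any unsorted one, at ratios of 0.588, 0.677 and 0.772, and did not pass the threshold. For CSTB, TFPI, TFPI2 and RECK the groups overlapped. The 9 genes passed the filter on low values, and 2 of them passed an adjusted p of 0.05 in limma over all 15786 genes tested, both lower, where 0.234% of all tested genes were called, 0.19% lower and 0.0443% higher. The same 2 genes passed in edgeR, which called 0.133% of all tested genes, and in DESeq2, which called 5.91%. SLPI passed edgeR narrowly, at an edgeR adjusted p of 0.0489. These methods use the same libraries, so they are not separate evidence. Of the 9 genes, 8 had log2 differences below 0, as did 51.9% of all tested genes. Groups did not overlap for 5 of 9, all lower, where 12.5% of tested genes lay lower without overlap and 11.3% higher. Since the genes were listed with this contrast known, nothing is read from these shares. The median log2 difference of the 9 was -0.37, beside -0.03 over all tested genes. Values are normalised read counts, that is reads per gene divided by 1 factor per library with no scaling for gene length, and a log2 difference is of value + 1, migratory minus unsorted.

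**Figure D1:**
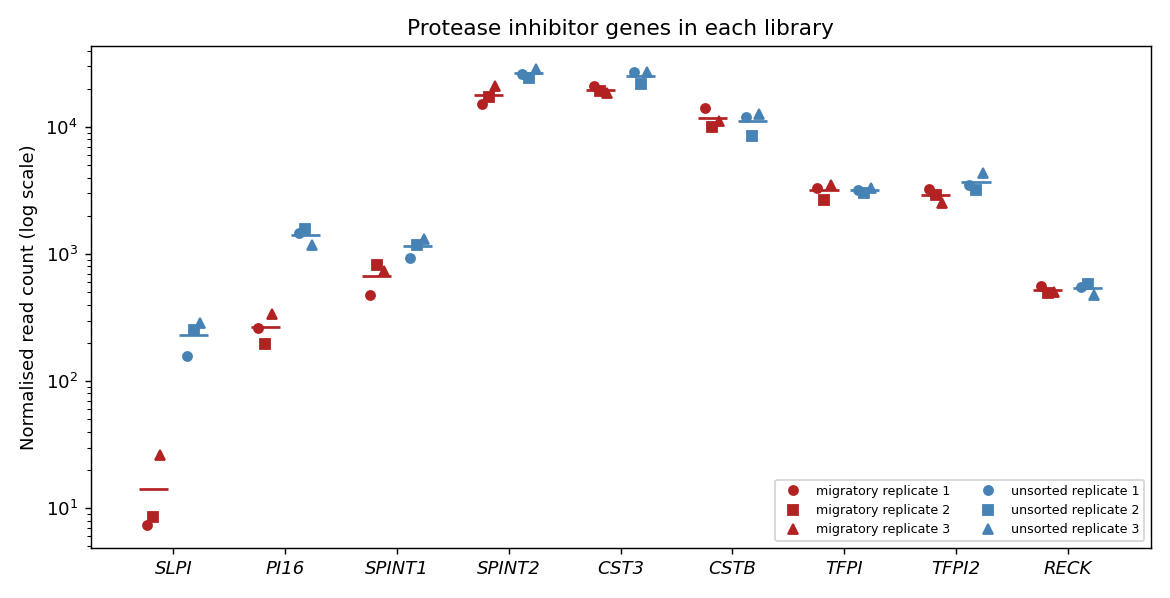
Normalised read count (log axis) of each of the 9 genes in the 3 migratory libraries (red) and the 3 unsorted libraries (blue). Points are libraries and horizontal lines are group means. SLPI, at the far left, spans 7.40 to 26.2 in migratory and 156 to 286 in unsorted libraries.

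SLPI, the secretory leukocyte protease inhibitor, is secreted by epithelia and blocks neutrophil elastase and cathepsin G. Its gene lies on chromosome 20 at 45252239 to 45254564 (GRCh38, minus strand). It had 7.40, 8.59 and 26.2 normalised read counts in migratory replicates 1, 2 and 3, against 156, 255 and 286 in unsorted replicates 1, 2 and 3. The migratory libraries were all low, with replicate 3 above the other two, and the highest of them lay 130 counts below the lowest unsorted library. These values stand on 6, 6 and 23 reads in the migratory and 137, 522 and 351 reads in the unsorted libraries. The exact Poisson 95% intervals, which cover counting error only, were 2.72 to 16.1, 3.15 to 18.7 and 16.6 to 39.3 counts in migratory replicates 1, 2 and 3. In unsorted replicate 1, the lowest of its group, the interval was 131 to 185. The log2 difference was -4.12 (SE 0.57, n = 3 per group), and it was past the limma threshold. Leaving out 1 library ended that call without migratory replicate 2 (log2 difference of -3.90) or without unsorted replicate 1 (-4.38), 2 (-4.03) or 3 (-3.95). Over the whole table these fits called 15, 1, 2 and 1 genes in that order, against 37 with all libraries. In bulk RNA, fewer cells with a transcript and less of it per cell cannot be told apart.

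PI16, peptidase inhibitor 16, lies on chromosome 6 at 36948263 to 36964837 (plus strand) and is known as a secreted or membrane-anchored CAP protein of heart and fibroblasts. It had 264, 196 and 337 normalised read counts in migratory replicates 1, 2 and 3, against 1462, 1580 and 1173 in unsorted replicates 1, 2 and 3. Each unsorted library was at over 3 times the level of any migratory one, with 836 counts between the groups. The log2 difference was -2.42 (SE 0.28, n = 3 per group), past the limma threshold. That call was lost without unsorted replicate 1 (-2.39), 2 (-2.33) or 3 (-2.55) and kept without any 1 migratory library. The fits that lost it called 1, 2 and 1 genes over the whole table. SLPI spread more between libraries than PI16 did. The SD of log2 values within groups, pooled over them, was 0.733 for SLPI and 0.318 for PI16, beside a median of 0.401 over all tested genes. For SLPI it was 0.929 in the migratory libraries, with 6, 6 and 23 reads, and 0.460 in the unsorted ones. For PI16 these SDs were 0.391 and 0.222. None of these spreads is adjusted for level.

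**Figure D2:**
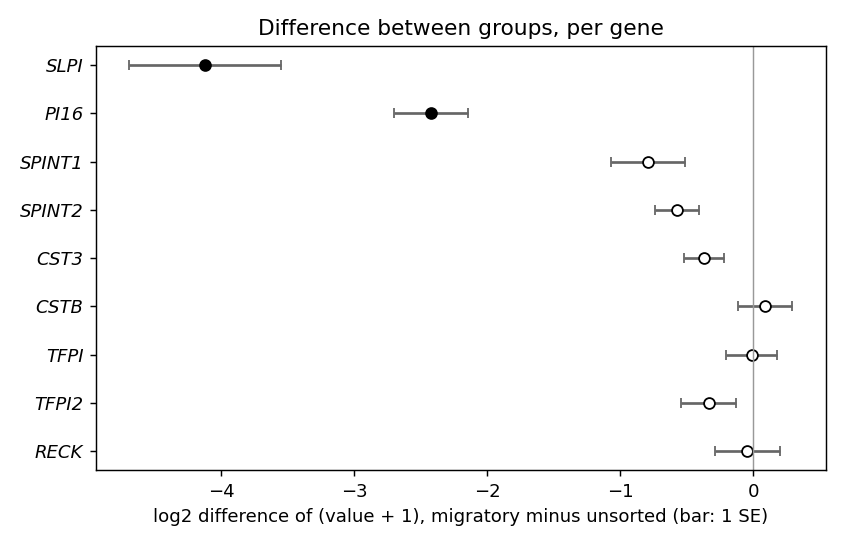
Log2 difference of value + 1, migratory minus unsorted, for each gene, with bars of 1 SE. Filled points passed the limma threshold over all genes, and SLPI at -4.12 and PI16 at -2.42 are the filled ones.

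Summed levels of the epithelial, fibroblast, blood and endothelial markers lay lower in every migratory library than in any unsorted one, the direction of SLPI and PI16. The sums follow their most abundant genes, several markers of each list overlapped between groups or were not measured, and limma called no marker. Of 8 markers of secretory or luminal epithelium 7 were measured, and all 7 had log2 differences below 0. Their summed level was 74829 to 105173 in migratory libraries and 113375 to 132491 in unsorted libraries. KRT18, KRT19 and CLDN4 made most of that sum. EPCAM, KRT19 and CLDN4 overlapped between groups, and KRT18 lay lower in migratory libraries without overlap. ELF3, an epithelial transcription factor, was at 35.4 ± 20.1 in migratory and 291 ± 127 in unsorted cells (SD, n = 3 each), and MUC1, an epithelial mucin, at 80.3 ± 25.6 in migratory and 284 ± 71.9 in unsorted cells, both without overlap. CDH1, the epithelial cadherin and a defining marker, was near 0 in both groups (0 to 20.5 in migratory and 0 to 28.3 in unsorted libraries). Of 8 fibroblast markers 5 were measured, all with log2 differences below 0, with sums of 818 to 2111 in migratory and 2772 to 4183 in unsorted libraries. COL1A1 was at 163 ± 83.9 in migratory and 389 ± 134 in unsorted cells, and COL1A2, its partner chain of type I collagen, at 641 ± 399 in migratory and 1956 ± 818 in unsorted cells, both without overlap. COL3A1, LUM and PDGFRB overlapped between groups. Of 6 blood markers 2 were measured, at a summed 28.5 to 112 in migratory and 307 to 411 in unsorted libraries, and CD14, a monocyte receptor, was at 65.6 ± 41.1 in migratory and 356 ± 66.1 in unsorted cells, without overlap. CD14 made most of that sum, and LYZ overlapped, at 3.42 to 8.59 in migratory and 0 to 24.5 in unsorted libraries. Of 5 endothelial markers 3 were measured, at a summed 640 to 976 in migratory and 1297 to 1878 in unsorted libraries. Of these PECAM1, an adhesion molecule, was at 783 ± 197 in migratory and 1565 ± 316 in unsorted cells, without overlap, while KDR, a receptor for vascular endothelial growth factor, overlapped at 53.8 ± 19.9 in migratory and 27.8 ± 24.0 in unsorted cells. Of 5 keratinocyte markers 3 were measured, and their sums overlapped (3844 to 6733 in migratory and 4173 to 5699 in unsorted libraries). KRT10 was at 5407 ± 1461 in migratory and 4983 ± 918 in unsorted cells. KRT14 had no read in the migratory libraries or in unsorted replicate 3, against 34.3 and 208 counts in unsorted replicates 1 and 2. The 4 erythroid markers are not analysed here. All samples were cells of the same established line, and the labels name no other cell type among them. These markers are therefore given as gene levels in that line, not as shares of other cell types. Any link between them and the SLPI and PI16 differences was not tested. VIM, CD44 and AXL, which mark this line, were measured in every library, at a summed 59385 to 67858 in migratory and 46281 to 51223 in unsorted libraries, and ESR1 and PGR are not analysed here. AXL, a receptor tyrosine kinase, was at 21313 ± 4758 in migratory and 13427 ± 648 in unsorted cells, and VIM, the filament protein vimentin, at 18533 ± 1560 in migratory and 14465 ± 1241 in unsorted cells, both without overlap. ERBB2, listed as low in this line, was at 1095 ± 563 in migratory and 1029 ± 392 in unsorted cells. Total reads ran from 27032454 to 34511537 in migratory and from 32789072 to 74227978 in unsorted libraries.

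SPINT1 and SPINT2 are the Kunitz inhibitors HAI-1 and HAI-2, which sit in the membrane and block matriptase, hepsin and the activator of hepatocyte growth factor. SPINT1 (chromosome 15, 40844018 to 40858207) had 472, 817 and 735 normalised read counts in migratory replicates 1, 2 and 3, against 936, 1184 and 1326 in unsorted replicates 1, 2 and 3. The groups were separated by 119 counts, less than the SD of either group (180 in migratory, 197 in unsorted). Its log2 difference was -0.79 (SE 0.28), with an unadjusted 95% interval of -1.41 to -0.17. SPINT2 (chromosome 19, 38244035 to 38292614) had 15309, 17301 and 21145 in migratory replicates 1, 2 and 3, against 26193, 24405 and 28755 in unsorted replicates 1, 2 and 3. All migratory libraries lay below all unsorted ones, by at least 3260 counts, with SDs of 2966 and 2186. The log2 difference was -0.57 (SE 0.17), with an interval of -0.94 to -0.20. Neither gene passed the threshold.

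The genes of matriptase, hepsin, the activator of hepatocyte growth factor and prostasin had lower counts than SPINT1 in every library. ST14, which encodes matriptase, had 56.7, 192 and 213 normalised read counts in migratory replicates 1, 2 and 3, against 359, 237 and 275 in unsorted replicates 1, 2 and 3, without overlap and with a limma adjusted p of 0.282. HPN, which encodes hepsin, had no read in the 3 migratory libraries and 19.4, 17.6 and 17.1 counts in the unsorted libraries. Against a floor of 3 reads per library it was at least 4.74-fold lower. HGFAC, the activator of hepatocyte growth factor, likewise had no read in migratory libraries and 18.3, 7.33 and 23.6 in unsorted libraries, at least 4.31-fold lower. HPN and HGFAC fell under the filter of a mean of 10 and were not tested. PRSS8, which encodes prostasin, had 49.3, 32.9 and 0 counts in migratory replicates 1, 2 and 3, against 5.71, 0 and 0 in unsorted replicates 1, 2 and 3, and its groups overlapped. TMPRSS2, another serine protease gene, had 0, 15.7 and 156 counts in migratory replicates 1, 2 and 3. In unsorted replicates 1, 2 and 3 it had 33.1, 454 and 194, and its groups overlapped. ST14, HPN, HGFAC, PRSS8 and TMPRSS2 are named after their values were seen.

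The cystatins were the most abundant of the inhibitors per base of transcript, together with SPINT2. CST3, cystatin C, is secreted and blocks cathepsins outside the cell and in lysosomes. Its gene lies on chromosome 20 at 23626706 to 23638473. It had 20852, 19286 and 18429 normalised read counts in migratory replicates 1, 2 and 3, against 26914, 21884 and 27036 in unsorted replicates 1, 2 and 3. The groups did not overlap, and the gap of 1032 counts was smaller than the SDs of 1229 and 2940. The log2 difference was -0.37 (SE 0.15), with an interval of -0.71 to -0.03. CSTB, cystatin B, stays in the cytosol and nucleus (chromosome 21, 43772511 to 43776445). It had 14024, 10064 and 11091 in migratory replicates 1, 2 and 3, against 11997, 8561 and 12613 in unsorted replicates 1, 2 and 3. These ranges overlapped for most of their length, and the log2 difference was 0.09 with an interval of -0.37 to 0.55.

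The ratio of 1 gene to another within a library does not depend on how libraries are scaled. CST3 over CSTB was 1.49, 1.92 and 1.66 in migratory replicates 1, 2 and 3, against 2.24, 2.56 and 2.14 in unsorted replicates 1, 2 and 3. This ratio was lower in each migratory library than in any unsorted one. The gene pairs were not part of the planned comparisons, and how often other pairs separate was not computed. Among single tested genes, 12.5% lay lower and 11.3% higher without overlap. Nothing is therefore read from the separation of a ratio. SPINT2 over SPINT1 averaged 27.4 ± 5.73 in migratory and 23.4 ± 3.98 in unsorted libraries (SD, n = 3 each), and the ranges overlapped. SPINT2 over CST3 also overlapped, at 0.926 ± 0.208 in migratory and 1.05 ± 0.0719 in unsorted libraries. With 3 libraries against 3, an exact two-sided permutation test cannot give a p under 0.1, and none was run.

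**Figure D3:**
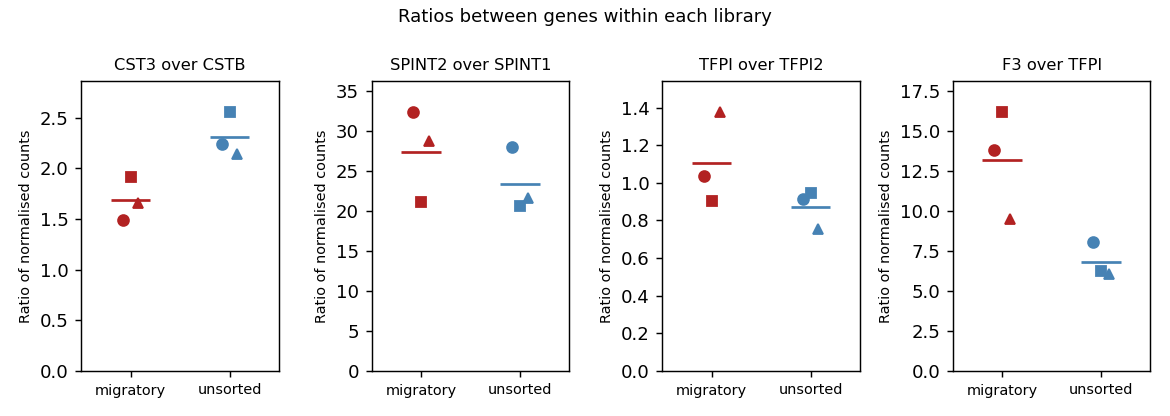
Ratio of the normalised counts of a pair of genes within each library, from 0, with migratory libraries (red) left of unsorted libraries (blue) and lines at the means. CST3 over CSTB lies lower in the migratory libraries (1.49 to 1.92) than in the unsorted ones (2.14 to 2.56), F3 over TFPI lies higher (9.50 to 16.2 against 6.05 to 8.04), and SPINT2 over SPINT1 and TFPI over TFPI2 overlap between the groups.

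TFPI and TFPI2 each carry a row of Kunitz domains. TFPI blocks factor Xa and the complex of tissue factor with factor VIIa, and TFPI2 blocks plasmin and trypsin and is laid down in the matrix. TFPI (chromosome 2, 187464230 to 187565760) had 3343, 2662 and 3505 normalised read counts in migratory replicates 1, 2 and 3, against 3177, 3013 and 3311 in unsorted replicates 1, 2 and 3. The unsorted values lay inside the migratory range, and the log2 difference was -0.01 (95% interval -0.44 to 0.42). TFPI2 (chromosome 7, 93885396 to 93890991) had 3233, 2944 and 2547 in migratory replicates 1, 2 and 3, against 3475, 3194 and 4383 in unsorted replicates 1, 2 and 3. Only migratory replicate 1 reached into the unsorted range, just above unsorted replicate 2. The log2 difference was -0.33 (SE 0.20), with an interval of -0.79 to 0.12. The TFPI over TFPI2 ratio was 1.10 ± 0.244 in migratory and 0.871 ± 0.101 in unsorted libraries (SD, n = 3 each), with overlapping ranges.

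F3, the tissue factor that TFPI restrains, had 40803 ± 6693 counts in migratory and 21471 ± 3584 in unsorted libraries (SD, n = 3 each), with a limma adjusted p of 0.0703. F3 was called with DESeq2, with array weights and with the replicate block, and in no other alternative. F3 over TFPI was 13.8, 16.2 and 9.50 in migratory replicates 1, 2 and 3, against 8.04, 6.25 and 6.05 in unsorted replicates 1, 2 and 3. F3 over TFPI2 was 14.3, 14.6 and 13.1 in migratory replicates 1, 2 and 3, against 7.35, 5.90 and 4.57 in unsorted replicates 1, 2 and 3. Both ratios were higher in every migratory library than in any unsorted one. These pairs too were not part of the planned comparisons. TFPI averaged 3170 in migratory and 3167 in unsorted libraries, so F3 over TFPI largely repeats the F3 difference. These are ratios of counts, with no scaling for the lengths of the genes.

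RECK, the membrane-anchored inhibitor of metalloproteases, also acts in Wnt7 signalling (chromosome 9, 36036433 to 36124451). It had 561, 497 and 504 normalised read counts in migratory replicates 1, 2 and 3, against 550, 587 and 475 in unsorted replicates 1, 2 and 3. The groups overlapped, and the log2 difference was -0.04 with an interval of -0.58 to 0.50. RECK had the smallest spread of the 9 genes within groups, with a pooled SD of 0.130 on the log2 scale, and 3.92% of all tested genes had a smaller one. CST3 followed at 0.139, TFPI at 0.158 and SPINT2 at 0.186. These ranks are not adjusted for level.

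Levels between genes were compared per 1 kb of the longest annotated transcript. In migratory cells the order was CST3 (5941 ± 374 counts per kb), SPINT2 (4707 ± 779), CSTB (3132 ± 549), TFPI2 (1189 ± 141), TFPI (412 ± 58.2), SPINT1 (221 ± 58.9), PI16 (116 ± 30.9), RECK (107 ± 7.24) and SLPI (23.6 ± 17.7), each as mean ± SD of 3 libraries. Between neighbours in that order only PI16 and RECK overlapped. In unsorted cells it was CST3 (7693 ± 895), SPINT2 (6948 ± 574), CSTB (2953 ± 583), TFPI2 (1507 ± 254), PI16 (614 ± 91.4), TFPI (412 ± 19.4), SLPI (390 ± 114), SPINT1 (376 ± 64.5) and RECK (110 ± 11.7). There the ranges of CST3 and SPINT2 overlapped, as did those of TFPI and SLPI and of SLPI and SPINT1. SLPI came below RECK in migratory cells with every length used. The longest transcript exceeds the one with the longest coding sequence for CST3 (3286 against 873 bases) and CSTB (3744 against 2164). The same holds for SPINT2 (3807 against 1802), TFPI (7690 against 3885), TFPI2 (2445 against 1144) and, by the least, PI16 (2288 against 2190). Levels were therefore also set per kb of the coding transcript, a choice made after seeing the data. On that scale CST3 came to 22363 ± 1408 in migratory and 28956 ± 3368 in unsorted cells. SPINT2 came to 9944 ± 1646 in migratory and 14679 ± 1213 in unsorted cells, and CSTB to 5419 ± 950 in migratory and 5110 ± 1009 in unsorted cells. TFPI2 came to 2542 ± 301 in migratory and 3220 ± 543 in unsorted cells, and TFPI to 816 ± 115 in migratory and 815 ± 38.4 in unsorted cells. The place of TFPI in unsorted cells depends on the length. Per kb of coding transcript it came above PI16 (642 ± 95.5) and SLPI. Per kb of all its exons joined, its mean came below that of SLPI (270 ± 12.7 against 390 ± 114), with overlapping ranges.

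No other gene of the related families was called in limma. Over 26 tested genes of 5 lists of related genes, it called 0 (0.234% of all tested genes were called). These lists were built by protein domain or family, and whether each gene blocks a protease was not assessed. An unadjusted limma p under 0.05 was reached by 7 (17.7% of all tested genes were). Calls by edgeR numbered 0 (0.133% of all) and by DESeq2 6 (5.91% of all). Of the 26, 21 had log2 differences below 0 (51.9% of all), with a median of -0.71. These lists too were chosen with earlier results known, so nothing is read from these shares. Of 5 other WAP-domain genes 4 had log2 differences below 0, with a median of -0.33. WFDC2, the ovarian cancer marker HE4, had 35.8, 42.9 and 30.8 counts in migratory replicates 1, 2 and 3, against 146, 76.7 and 139 in unsorted replicates 1, 2 and 3, without overlap and with a limma adjusted p of 0.121. WFDC10B was at 37.7 ± 20.1 in migratory and 59.3 ± 17.6 in unsorted cells (SD, n = 3 each). Of 5 other Kunitz-domain genes 4 were below 0, with a median of -0.28. APP, the amyloid precursor, of which some isoforms carry a Kunitz domain, was at 3291 ± 99.3 in migratory and 1960 ± 777 in unsorted cells, without overlap and with a limma adjusted p of 0.171. COL7A1, anchoring fibril collagen, was at 511 ± 158 in migratory and 900 ± 262 in unsorted cells.

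Of 5 other cystatin genes 4 were below 0, with a median of -0.22. CST4, a salivary cystatin, was at 4299 ± 907 in migratory and 7118 ± 1226 in unsorted cells (SD, n = 3 each), without overlap and with a limma adjusted p of 0.14. CST2 was at 439 ± 155 in migratory and 687 ± 141 in unsorted cells, with overlap. CST1, CST2 and CST4 are close copies that lie next to CST3 on chromosome 20, and how the counting split reads that fit several of them is not stated in the labels. Of 5 other CAP-superfamily genes 3 were below 0 (median -0.25), and GLIPR1 was at 3692 ± 210 in migratory and 2476 ± 193 in unsorted cells, without overlap and with a limma adjusted p of 0.16. CRISPLD1 had no read in the migratory libraries or in unsorted replicate 2, against 11.4 and 55.5 counts in unsorted replicates 1 and 3. All 6 tested Kazal, thyropin and macroglobulin genes were below 0, with a median of -1.59. SPINK4, a Kazal inhibitor of goblet cells, was at 635 ± 494 in migratory and 1792 ± 702 in unsorted cells, and KAZALD1 at 152 ± 37.1 and 350 ± 95.8 in these groups, each without overlap and with a limma adjusted p of 0.128.

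**Figure D4:**
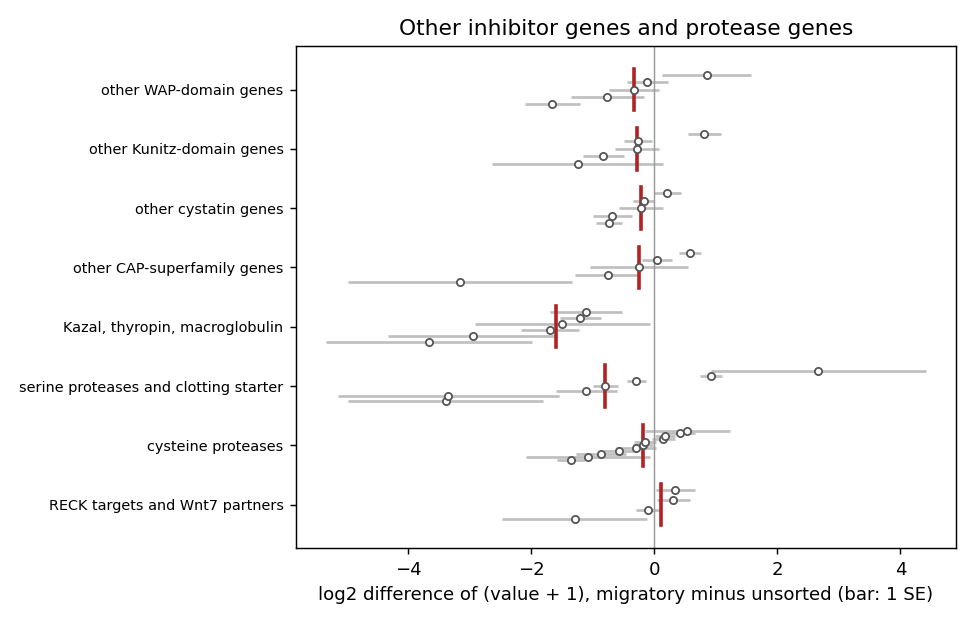
Log2 difference of value + 1, migratory minus unsorted, with bars of 1 SE, for tested genes of the lists of related genes, built by domain or family (upper 5 lists), and of proteases (lower 3 lists). Red lines are list medians, from -1.59 for the Kazal, thyropin and macroglobulin list to 0.11 for the RECK targets with Wnt7 partners, and no gene shown passed the limma threshold over all genes.

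Among 22 tested proteases and partners, limma called 0 (0.234% of all tested genes), with 3 at an unadjusted p under 0.05 (17.7% of all). Calls by edgeR numbered 0 (0.133% of all) and by DESeq2 3 (5.91% of all). Of 7 serine protease genes, F3 included, 5 were below 0, with a median of -0.79. HTRA1, a secreted serine protease, was at 1828 ± 209 in migratory and 3182 ± 472 in unsorted cells (SD, n = 3 each), with a limma adjusted p of 0.112. The cysteine proteases that cystatins block had a median of -0.18 over 11 genes, 7 below 0 and 4 above. CTSF, cathepsin F, had 1385, 2247 and 1717 counts in migratory replicates 1, 2 and 3, against 4604, 4040 and 4822 in unsorted replicates 1, 2 and 3. Its log2 difference was -1.36 (SE 0.22) and its limma adjusted p 0.0501, just over the threshold. CTSV was at 203 ± 82.0 in migratory and 363 ± 134 in unsorted cells. Of the 4 measured RECK targets and Wnt7 partners 2 were above 0 and 2 below (median 0.11), with MMP9 at 7.35 ± 5.70 in migratory and 23.0 ± 22.8 in unsorted cells and WNT7B at 710 ± 181 and 565 ± 87.6 in these groups.

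Genes with the most similar profile were taken by Pearson's r of log2(value + 1) over the 6 libraries, among genes with a mean of at least 50. All of these r values include the difference between groups and share the same libraries. For SLPI they were TBC1D8 (r of 0.994), CCDC106 (0.993) and CTD-3131K8.2 (0.993). TBC1D8 was at 352 ± 65.6 in migratory and 830 ± 106 in unsorted cells (SD, n = 3 each). For PI16 they were PGBD2 (0.998), AQP5 (0.996) and ZNF30 (0.992). AQP5, a water channel of secretory glands, was at 67.2 ± 16.0 in migratory and 423 ± 70.6 in unsorted cells, and PGBD2 at 531 ± 45.5 and 892 ± 34.6 in these groups.

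Promoters of 6 of the 9 genes (PI16, SPINT1, CST3, TFPI, TFPI2 and RECK) are in the RefSeq table of GRCh38.p14, as windows of 300 bases ending 50 bases after the start. SLPI, SPINT2 and CSTB have no entry. A search of both strands found the kappa-B core, GGGA and CC with any 4 bases between, in windows of SPINT1, CST3 and TFPI, where 25.6% of all 35116 windows held it. The AP-1 motif, spelled TGANTCA, was in windows of SPINT1 and TFPI2, against 7.71% of all windows, and the window of PI16 held neither. Small parts of the exons overlap other genes, at 2.82% for SPINT1, 4.66% for SPINT2, 1.01% for TFPI and 1.64% and 2.95% for TFPI2 with separate genes, and these libraries do not mark the strand.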

How the data were processed

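Gene expression was measured in 3 migratory and 3 unsorted samples of MDA-MB-231 cells. The deposited values are a signal: the authors' reads for each gene, divided by a factor for that library. The submitters' processing notes name HISAT2, HTSeq, DESeq2, hg38 and GRCh38.p7; settings, and how shared reads were counted, are not given in the sources. Each library's values were whole multiples of 1 read (100% whole within 0.01 read), so reads were recovered. Libraries held 27032454 to 74227978 reads, without molecular identifiers, so intervals and floors cover counting error only. Libraries within a group differed beyond counting error (chi-square over its degrees of freedom, 44.1 to 152), so none was taken as the same library sequenced again. This comparison cannot tell separate cultures from technical replicates.

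The test was limma 3.58.1 (R 4.3.3) with a variance trend, on log2(value + 1), for the 15786 genes with a mean of at least 10, and Benjamini-Hochberg adjustment over all of them. This scale understates differences of low genes. Alternatives were edgeR 4.0.16 and DESeq2 1.42.0 on recovered reads, other pseudocounts, filters and scalings, array weights, a replicate block and leaving out each library. The script was tested on simulated data. The inhibitor genes and all lists were chosen with earlier results of these data known. Named were all listed inhibitors, from each list any called gene and otherwise the 2 genes of smallest p, and the 3 genes most like each called inhibitor. Coordinates, transcripts and lengths come from GENCODE release 29 on GRCh38.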

Additional observations from a re-analysis of the deposited data

How the results depend on the processing

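SLPI kept its direction in all 16 alternatives (log2 differences of -4.66 to -3.73) and passed in 12. PI16 kept its direction in all 16 (-2.61 to -2.22) and passed in 13. The calls were lost only in fits with a library left out. Both stayed without migratory replicate 1 or 3, and both were lost when any 1 unsorted library was left out. The loss was not particular to these genes. Without unsorted replicate 1, 2 or 3, limma called 1, 2 and 1 genes over the whole table, against 37 in the main fit. The reason was not tested. None of the other 7 inhibitors passed in any alternative run. SPINT1, SPINT2, CST3 and TFPI2 kept their direction in all 16. Near 0, TFPI was at 0.0031 with DESeq2 and ranged from -0.0852 to 0.1131 with 1 library left out, CSTB was at -0.0782 with array weights and ranged from -0.0833 to 0.1962, and RECK ranged from -0.1282 to 0.0244; the cause was not tested.

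Genes called over the whole table numbered 37, against 68 with a pseudocount of 5, 78 with a mean of at least 50, 70 with upper-quartile scaling, 21 with edgeR, 933 with DESeq2, 507 with array weights and 114 with a replicate block. With 1 library left out they ranged from 1 to 44, the called inhibitors from 0 to 2 and the called genes of the related lists from 0 to 1. Of the genes of the related lists 6 were called with DESeq2, 4 with array weights and 1 with the replicate block. Of the proteases and partners 1 was called with a pseudocount of 5, with a mean of at least 50 and with upper-quartile scaling (CTSF each time), 3 with DESeq2 (HTRA1, F3 and CTSF), 2 with array weights and 2 with the replicate block (F3 and CTSF in both). Replicate numbers were not taken as pairs in the main fit, and whether they mark pairs is not settled here. Deviations of same-numbered libraries correlated across genes at 0.117, 0.108 and 0.0369, all above 0. Those of different numbers ran from -0.162 to 0.0723. The highest of these was for migratory replicate 3 with unsorted replicate 2, above that replicate's value with its own number. The block changed no call among the 9 inhibitors. Depth limits SLPI most, with 6 reads in the lowest libraries.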
